A study of Mus musculus with 12 samples.

Results

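The measurement described here is the interaction of TBLR1 knockdown with isoproterenol in 3T3-L1 adipocytes. It is the response to isoproterenol with TBLR1 shRNA minus the response with control shRNA, where each response is the isoproterenol level minus the untreated level on the log2 scale. All 12 of the 12 arrays of the series enter it, 3 in each of 4 groups taken from the sample titles: TBLR1 shRNA with isoproterenol, TBLR1 shRNA untreated, control shRNA with isoproterenol, and control shRNA untreated. 3T3-L1 is a mouse fibroblast line that turns into fat cells in culture. All 4 groups had received adenovirus on day 9 of differentiation at a multiplicity of infection of 500, so the controls carried the virus and an shRNA as well. The cells were placed 3 days later in Krebs-Ringer buffer for 2 h, and the isoproterenol groups were then exposed to 10 µM of the drug for 3 h. RNA came from whole cultures, in which fewer expressing cells and less RNA per cell cannot be told apart. Whether replicates came from separate cultures is not given by the labels, so a p-value here reflects the spread among these samples, and that spread may be technical.

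Isoproterenol activates β-adrenergic receptors. Their G protein raises cyclic AMP, protein kinase A is activated, and the kinase starts lipolysis and phosphorylates CREB, which binds cAMP response elements in the promoters of genes such as Pck1, Nr4a1, Fos and Ppargc1a. TBLR1 is the product of Tbl1xr1. It belongs to the corepressor complexes built on NCoR and SMRT, and it helps swap corepressors for coactivators at nuclear receptors and other transcription factors. A difference between the 2 responses can arise at the untreated level, at the stimulated level or at both, so the 4 levels are given beside each difference.

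The responses differed between the shRNAs for 366 of 15267 genes, at a Benjamini-Hochberg adjusted p under 0.05 in a limma model fitted to all genes (2.4% of the genes tested). The difference was below 0 for 203 genes (1.33%) and above 0 for 163 (1.07%). In most of these genes the response with TBLR1 shRNA was the smaller one, for rises and for falls alike. Responses themselves were called for 1353 genes with TBLR1 shRNA (8.86%) and 2833 genes with control shRNA (18.6%). The median difference over all genes was 0.00098 on the log2 scale. Among the 366 genes the median size was 0.35, and the smallest was 0.20. The difference reached 1.5-fold or more for 48 genes, 35 of them below 0, and 2-fold or more for 10 genes, 9 of them below 0. Without the third TBLR1 shRNA array with isoproterenol the count was 198, and leaving out each array in turn gave 198 to 385. Centring the arrays on their hybridisation controls gave 252 calls, 59.9% of them above 0, against 44.5% as deposited.

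The arrays were alike in their overall properties. Correlations across genes were 0.998 to 0.999 within a group and 0.977 to 0.997 between groups. The adipocyte genes Adipoq and Fabp4 read above 14 in every group, on a scale that ran from 5.39 to 14.58. The leptin gene Lep lay near the low end. Neither these genes nor Lipe, Pparg, Cidec and Retn were called for the interaction. Adipoq read 14.54 on every control array of both treatments. So near the top of the scale, a response of Adipoq or Fabp4 could hardly show, and their missing calls carry little information. Tbl1xr1 itself was lower with TBLR1 shRNA by 0.86 with isoproterenol and by 0.79 untreated. Its levels with TBLR1 shRNA, 6.42 with isoproterenol and 6.45 untreated, lay near the low end of the scale, and the size of the knockdown was not measured from them. Its own interaction was -0.07 (adjusted p = 0.677, limma). The 3′ minus 5′ level of the actin control probe sets, a measure of RNA integrity, averaged 1.02 with TBLR1 shRNA and isoproterenol, 0.891 with TBLR1 shRNA untreated, 1.02 with control shRNA and isoproterenol and 0.940 with control shRNA untreated, a difference of responses of 0.045 whose part in the results was not tested. One array stood apart for immediate early genes. Untreated TBLR1 shRNA replicate 1 exceeded both other arrays of its group by over 0.3 for 12 of the 366 genes, and fell below both by that much for 0. Averaged over the 17 genes of the AP-1 and EGR list, that array lay 0.899 above the untreated control mean, against 0.623 and 0.574 for its 2 companions. The control arrays with replicate number 1 stood apart for interferon-induced genes, at 0.0015 with isoproterenol and 0.255 untreated for the mean of 23 genes above the untreated control mean, against -0.334 and -0.307 and against -0.029 and -0.226 for the others of their groups.

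The genes that differed were divided by their 2 responses. A smaller rise, called with both shRNAs but lower with TBLR1 shRNA, was found for 106 genes, with median responses of 0.42 with TBLR1 shRNA and 0.89 with control shRNA. A rise called only with control shRNA, termed a lost rise, was found for 92 genes, with median responses of 0.04 and 0.37 in the same order. Smaller falls numbered 35 (median responses -0.23 and -0.54) and lost falls 99 (-0.03 and -0.35). The converse was rare, with 18 gained rises (0.29 and -0.06), 5 larger rises (Metrnl, Thbd, Tnfaip6, Spin4 and D16Ertd472e), 4 gained falls (Ptgdr, 1810010H24Rik, Rora and Mrpl34) and 0 larger falls. Opposite responses were called for 4 genes, Lpin1, Tns3, Phldb2 and Trex1, and neither response was called for 3, Daxx, Sertad2 and Kank3. A lost response is one that missed the threshold with TBLR1 shRNA and is not shown to be 0. The calls of the 4 gained falls ended with hybridisation control centring, at an adjusted p of 0.12 for Ptgdr, 0.167 for 1810010H24Rik, 0.203 for Rora and 0.399 for Mrpl34. Of the 12 analyses with 1 array left out, the call held in 12 for Ptgdr, in 4 for Rora, those without a replicate 1 array, in 2 for Mrpl34, those without TBLR1 shRNA isoproterenol replicate 2 or untreated replicate 1, and in 1 for 1810010H24Rik, that without TBLR1 shRNA untreated replicate 1. For Daxx, Sertad2 and Kank3 it held in 3, 2 and 1 of the 12, and was lost up to an adjusted p of 0.112, 0.09 and 0.121.

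**Figure D1:**
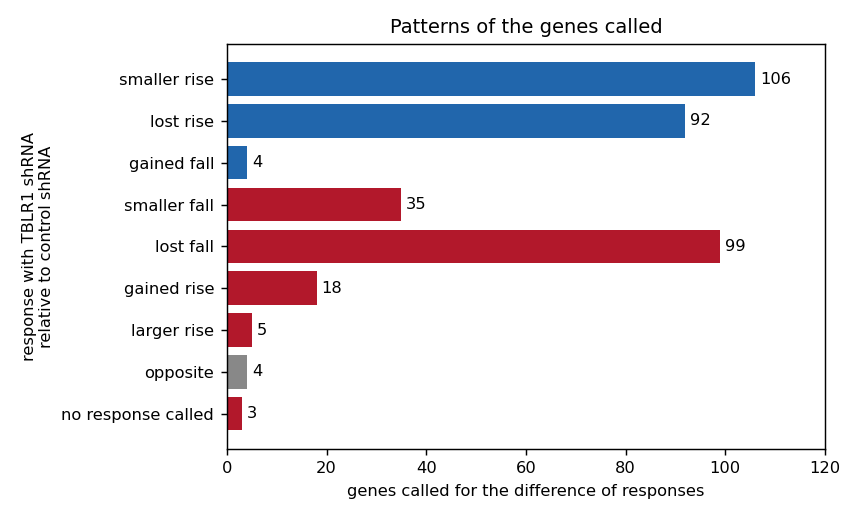
Number of genes with a called difference of responses in each class of response. Blue bars hold genes below 0, red bars genes above 0, and the grey bar the 4 opposite responses, of which 1 was below 0 and 3 above. Smaller and lost rises (106 and 92) and smaller and lost falls (35 and 99) make up most of the 366 genes.

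Strong responders were mostly in these classes. Of the 64 genes that rose at least 2-fold with control shRNA, 60 had the smaller response with TBLR1 shRNA, 49 were called below 0 and 1 was called above 0. Choosing genes by a large control response itself favours a smaller response in the other arm. Over all 15267 genes, 8701 had the smaller response with TBLR1 shRNA. Choosing the genes on the other arm, which shares no array with the first, gave 26 genes that rose at least 2-fold with TBLR1 shRNA, of which 19 still had the smaller response there, 15 were called below 0 and 2 above 0. Of the 25 genes that fell at least 1.5-fold with control shRNA, again a choice made on the control response, all 25 had the smaller response with TBLR1 shRNA. Of these, 16 were called above 0. Only 3 genes fell at least 1.5-fold with TBLR1 shRNA, Glcci1, Mylip and Saa3, of which 1 had the smaller response there, with a median difference of -0.20, and 0 of them were called for the difference by limma (1 at an unadjusted p under 0.05).

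**Figure D2:**
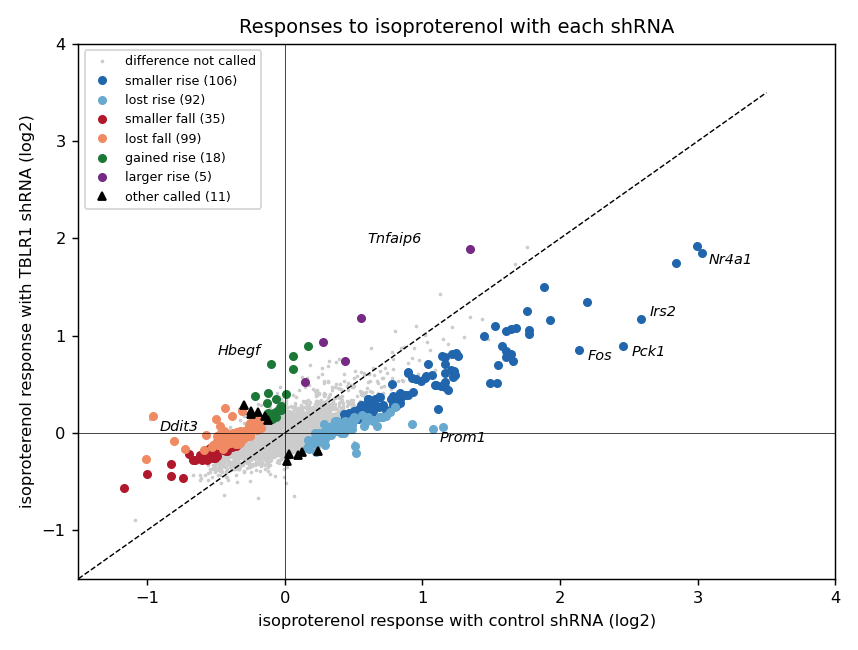
Response to isoproterenol with TBLR1 shRNA (vertical axis, log2) against the response with control shRNA (horizontal axis, log2), each point a gene and coloured points the called differences. Points for strong control responses lie nearer the horizontal axis than the diagonal would place them, as for Pck1 (0.89 against 2.46) and Ddit3 (-0.08 against -0.81).

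Genes of fuel metabolism, Pck1 and Irs2, gave the lowest values of all 366 genes. Pck1, which encodes the cytosolic phosphoenolpyruvate carboxykinase used by fat cells to make glycerol 3-phosphate, read 9.36, 9.27 and 9.31 with TBLR1 shRNA and isoproterenol and 8.44, 8.40 and 8.42 with TBLR1 shRNA untreated, against 10.21, 10.59 and 10.24 with control shRNA and isoproterenol and 7.93, 7.78 and 7.94 with control shRNA untreated. All TBLR1 shRNA arrays lay below all control arrays with isoproterenol and above them untreated, with no overlap either way. Pck1 thus rose 1.86-fold with TBLR1 shRNA and 5.50-fold with control shRNA, a difference of -1.57 ± 0.11 (SE, n = 3 arrays per group, adjusted p = 1.62e-06). Such a pattern, with the groups called different in opposite directions at the 2 ends, is termed crossing below.

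Irs2, an adaptor that carries the insulin signal from its receptor, showed the same order. It read 9.97, 9.99 and 9.80 with TBLR1 shRNA and isoproterenol and 9.01, 8.69 and 8.55 with TBLR1 shRNA untreated, against 10.76, 10.88 and 10.75 with control shRNA and isoproterenol and 8.17, 8.22 and 8.23 with control shRNA untreated. Its rise was 2.25-fold with TBLR1 shRNA and 6.03-fold with control shRNA, and the difference was -1.42 ± 0.12 (adjusted p = 1.37e-05). Irs2 was the 1 called member (5.88%, against 2.4% of all genes) among 17 measured genes of insulin signalling, whose median difference was -0.02.

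Ppargc1a, the coactivator PGC-1α that drives mitochondrial and thermogenic genes, read 9.76, 9.52 and 9.57 with TBLR1 shRNA and isoproterenol and 7.80, 7.86 and 7.94 with TBLR1 shRNA untreated, against 10.32, 10.59 and 10.34 with control shRNA and isoproterenol and 7.60, 7.57 and 7.56 with control shRNA untreated. Again the groups crossed without overlap. The rise was 3.36-fold with TBLR1 shRNA and 7.16-fold with control shRNA (difference -1.09 ± 0.10, adjusted p = 1.95e-05). Its relative Ppargc1b differed by -0.54 ± 0.09 (adjusted p = 0.0038) but ended level, with TBLR1 shRNA 0.53 higher untreated and 0.00 apart with isoproterenol. Of the 11 measured thermogenic and PGC-1 genes, 3 were called below 0 and 0 above (27.3%, against 2.4% of all genes). Their median difference was -0.10. The third call, Fgf21 (-0.30), was kept in 4 of 12 analyses with 1 array left out. It ended with hybridisation control centring (adjusted p = 0.239, limma). Ucp1, the uncoupling protein of brown fat, responded by 0.27 and 0.31 with the 2 shRNAs and gave -0.04 ± 0.09 (adjusted p = 0.894). The Ucp1 group means, 5.97 to 6.28, lay near the low end of the scale.

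Pdk4, a kinase that shuts pyruvate out of oxidation, read 11.86, 11.84 and 11.74 with TBLR1 shRNA and isoproterenol and 10.74, 10.49 and 10.72 with TBLR1 shRNA untreated, against 11.79, 11.97 and 12.01 with control shRNA and isoproterenol and 9.94, 10.02 and 10.02 with control shRNA untreated. The stimulated levels overlapped and the untreated levels did not. The rise was 2.23-fold with TBLR1 shRNA and 3.81-fold with control shRNA, a difference of -0.77 ± 0.09 (adjusted p = 3.71e-04). This pattern, in which the groups differed untreated and were not called different with isoproterenol, is termed converging. Pck1 and Pdk4 were the 2 members called among 11 measured genes of glyceroneogenesis and pyruvate handling (18.2%, against 2.4% of all genes). The glycerol 3-phosphate dehydrogenase gene Gpd1 gave -0.04 ± 0.07 (adjusted p = 0.878).

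**Figure D3:**
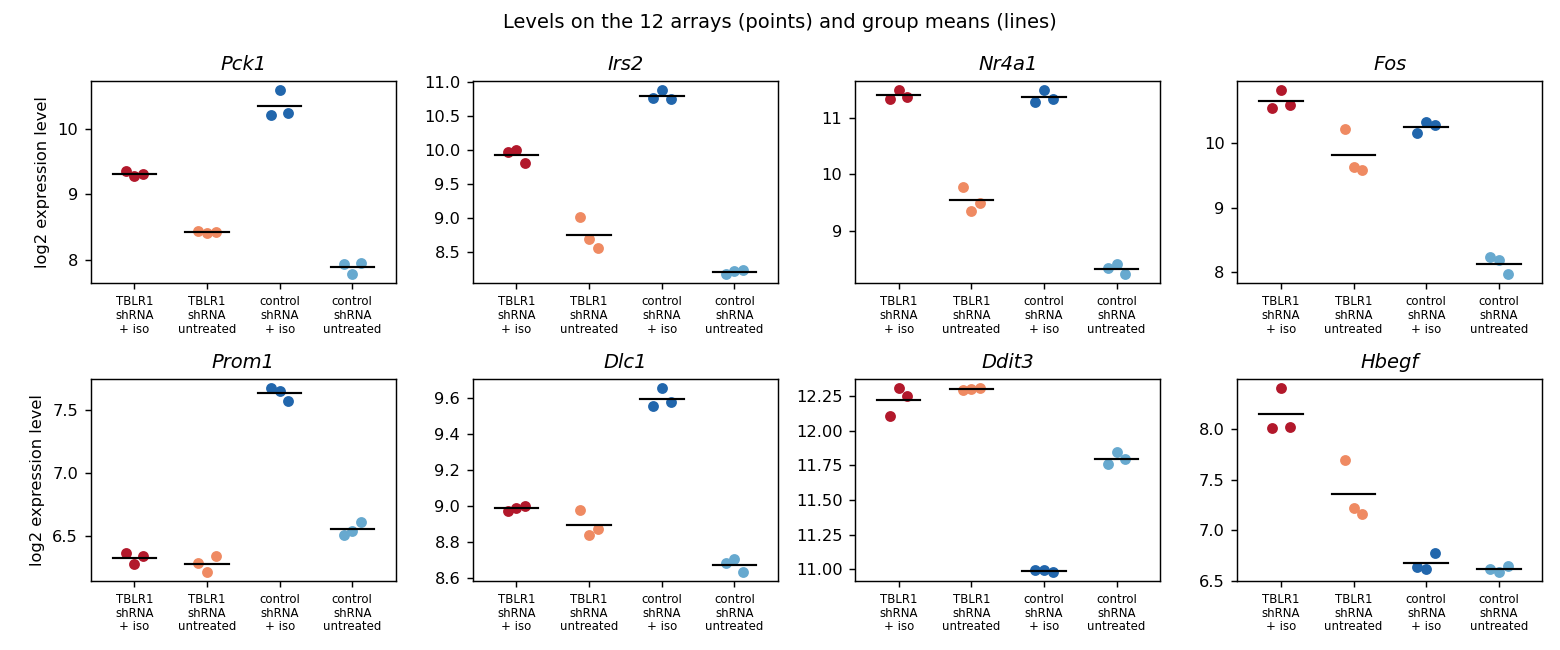
Log2 level of 8 genes on every array, in the order TBLR1 shRNA with isoproterenol, TBLR1 shRNA untreated, control shRNA with isoproterenol and control shRNA untreated; each point is an array, each line a group mean, and iso stands for isoproterenol. Pck1 and Irs2 cross, Nr4a1 ends at one level from different starts, Prom1 and Dlc1 rise only with control shRNA, Ddit3 falls only with control shRNA and Hbegf rises only with TBLR1 shRNA.

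Of the 3 receptors of the NR4A family, immediate targets of CREB, 2 were called below 0 and 0 above (66.7%, against 2.4% of all genes). Nr4a1, an orphan nuclear receptor induced within minutes by cyclic AMP, read 11.33, 11.49 and 11.37 with TBLR1 shRNA and isoproterenol and 9.77, 9.36 and 9.50 with TBLR1 shRNA untreated, against 11.28, 11.49 and 11.33 with control shRNA and isoproterenol and 8.34, 8.41 and 8.24 with control shRNA untreated. The stimulated arrays were intermixed, while every untreated TBLR1 shRNA array lay above every untreated control array. TBLR1 shRNA was 0.03 higher with isoproterenol (adjusted p = 0.80) and 1.21 higher untreated, and the rises of 3.61-fold and 8.18-fold differed by -1.18 ± 0.12 (adjusted p = 5.30e-05). Its relative Nr4a2 did the reverse: the groups were level untreated and 0.60 lower in TBLR1 shRNA with isoproterenol, a difference of -0.60 ± 0.14 (adjusted p = 0.0344). Without 1 array the Nr4a2 call held only when control shRNA isoproterenol replicate 1, control shRNA untreated replicate 2 or TBLR1 shRNA untreated replicate 3 was the one left out (adjusted p up to 0.0975 otherwise). Nr4a3, the third receptor of the family, gave -0.03 ± 0.07 (adjusted p = 0.917). Its group means, 6.43 to 6.49, lay near the low end of the scale, and no response was called with either shRNA.

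Fos, a subunit of the AP-1 transcription factor, read 10.55, 10.83 and 10.60 with TBLR1 shRNA and isoproterenol and 10.22, 9.63 and 9.58 with TBLR1 shRNA untreated, against 10.16, 10.33 and 10.29 with control shRNA and isoproterenol and 8.22, 8.18 and 7.96 with control shRNA untreated. Fos was higher with TBLR1 shRNA at both ends, by 0.40 with isoproterenol and by 1.69 untreated, without overlap. It rose 1.80-fold with TBLR1 shRNA and 4.40-fold with control shRNA (difference -1.29 ± 0.18, adjusted p = 0.00108). Without the untreated TBLR1 shRNA replicate 1, the high array, the difference was -1.08 (adjusted p = 1.13e-04). The median difference of the 17 AP-1 and EGR genes measured was -0.09. Of these, 5 were called below 0 and 0 above (29.4%, against 2.4% of all genes). They were Fos, Atf3 (-0.65 ± 0.11), Fosl1 (-0.57 ± 0.14), Jun (-0.53 ± 0.09) and Fosl2 (-0.33 ± 0.07), and the Fosl2 call ended with hybridisation control centring (adjusted p = 0.101). The Fosl1 call (adjusted p = 0.0478) held in 2 of the 12 analyses with 1 array left out, those without TBLR1 shRNA untreated replicate 1 or 3, and reached 0.12 in the others. Egr1, a zinc finger factor at 2.50 and 2.76 above control with TBLR1 shRNA at the 2 ends, gave -0.26 ± 0.18 (adjusted p = 0.59).

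Among other genes that answer cyclic AMP, Rasd1, Crem and Sik1 differed at the stimulated end. Rasd1, a Ras-related GTPase, read 7.76, 7.66 and 7.83 with TBLR1 shRNA and isoproterenol and 7.23, 7.27 and 7.20 with TBLR1 shRNA untreated, against 8.66, 8.88 and 8.88 with control shRNA and isoproterenol and 7.33, 7.24 and 7.22 with control shRNA untreated. The untreated arrays overlapped and the stimulated arrays did not, a pattern termed diverging. The difference was -1.03 ± 0.08 (adjusted p = 7.37e-06). Crem, whose inducible product ICER represses CREB targets, differed by -0.51 ± 0.07 (adjusted p = 0.00124) and the salt-inducible kinase gene Sik1 by -0.43 ± 0.08 (adjusted p = 0.00829), and both diverged as well. The phosphodiesterase gene Pde4b, which degrades cyclic AMP, converged (-0.35 ± 0.08, adjusted p = 0.0314), and its call was lost in 6 of the 12 analyses with 1 array left out, those without control shRNA isoproterenol replicate 2, TBLR1 shRNA isoproterenol replicate 2 or 3 or any TBLR1 shRNA untreated array (adjusted p up to 0.0822), and with hybridisation control centring (adjusted p = 0.0826). The 21 measured feedback regulators and targets of cyclic AMP and CREB had a median difference of -0.19. Of these, 8 were called below 0 and 0 above (38.1%, against 2.4% of all genes). The 8 include genes that other lists below count again. They are Nfil3 and Bhlhe40 (clock genes), Klf4 (adipogenic factors) and Ppp1r15a (integrated stress response). Crem, Sik1, Pde4b, Fosl2, Nr4a3, Ucp1, Gpd1 and Egr1 were chosen for mention after their values were seen.

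Of 26 measured genes of the adrenergic receptors and protein kinase A, 2 were called below 0 (7.69%, against 2.4% of all genes called either way), with a median difference of -0.04. They were Akap1, an anchor of the kinase at mitochondria (-0.34 ± 0.05, adjusted p = 0.00269), and the adenylyl cyclase gene Adcy3 (-0.27 ± 0.07, adjusted p = 0.046), and both calls ended after centring on the hybridisation controls (adjusted p = 0.0742 and 0.326). The Adcy3 call also ended in 9 of 12 analyses with an array left out, all but those without control shRNA isoproterenol replicate 1, TBLR1 shRNA isoproterenol replicate 3 or TBLR1 shRNA untreated replicate 3. Of the 10 measured genes of the TBLR1 corepressor complex, 0 were called by limma and 1 had an unadjusted p under 0.05.

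Transcription factors of the circadian and adipogenic programmes were among the smaller rises. Nfil3, a bZIP repressor tied to the clock, read 10.98, 10.69 and 10.79 with TBLR1 shRNA and isoproterenol and 8.97, 8.91 and 8.80 with TBLR1 shRNA untreated, against 11.38, 11.44 and 11.41 with control shRNA and isoproterenol and 8.54, 8.45 and 8.25 with control shRNA untreated. The groups crossed without overlap. It rose 3.80-fold with TBLR1 shRNA and 7.99-fold with control shRNA, a difference of -1.07 ± 0.11 (adjusted p = 3.93e-05). Of 16 measured clock genes, whose median difference was 0.01, 4 were called below 0 (25.0%, against 2.4% of all genes). They were Nfil3, the repressor gene Cry1, which rose only with control shRNA (-0.43 ± 0.08, adjusted p = 0.0057), and the clock factors Arntl (-0.36 ± 0.08, adjusted p = 0.0236) and Bhlhe40 (-0.33 ± 0.07, adjusted p = 0.0299). The calls of Arntl and Bhlhe40 ended with hybridisation control centring (adjusted p = 0.0887 and 0.122) and were lost in 6 and 8 of the 12 analyses with 1 array left out (adjusted p up to 0.0679 and 0.0827). For Arntl these were the analyses without control shRNA isoproterenol replicate 2 or 3, control shRNA untreated replicate 2, TBLR1 shRNA isoproterenol replicate 2 or TBLR1 shRNA untreated replicate 2 or 3. The Bhlhe40 call was kept only without control shRNA isoproterenol replicate 2, control shRNA untreated replicate 2, TBLR1 shRNA isoproterenol replicate 1 or TBLR1 shRNA untreated replicate 3. Of 24 adipogenic transcription factors, with a median of -0.07, 5 were called below 0 and 1 above (25.0%, against 2.4% of all genes). Cebpb, which starts the adipogenic cascade, crossed (-0.60 ± 0.06, adjusted p = 5.30e-05), and Cebpa, which holds the mature state, was lower with TBLR1 shRNA at both ends and rose less (-0.39 ± 0.07, adjusted p = 0.0102). Klf4, a zinc finger factor that acts before Cebpb in adipogenesis, diverged (-0.83 ± 0.12, adjusted p = 0.00108). The other calls were Klf9 (-0.47), the gained fall Rora (-0.31, limits given above) and, above 0, Klf6 (0.64, adjusted p = 0.0366, limma). The Klf6 call held in 2 of 12 analyses with 1 array left out, those without control shRNA untreated replicate 3 or TBLR1 shRNA untreated replicate 1. It also ended with trend and robust eBayes settings (adjusted p = 0.114).

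Promoter sequence is shown for 6 genes with a smaller rise, since cAMP response elements are the known binding sites of CREB. The sequences are from RefSeq on build GRCm38.p6, 120 bases each within the 250 bases before the annotated start, written in the direction of transcription. Capitals mark the half-site TGACG or its complement CGTCA, so both strands were searched, and the full palindromic element counts as 2 overlapping half-sites.
Pck1, chr2:173152923-173153042, + strand: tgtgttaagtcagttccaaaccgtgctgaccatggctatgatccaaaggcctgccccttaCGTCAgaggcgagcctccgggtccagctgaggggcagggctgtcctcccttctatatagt
Nr4a1, chr15:101266726-101266845, + strand: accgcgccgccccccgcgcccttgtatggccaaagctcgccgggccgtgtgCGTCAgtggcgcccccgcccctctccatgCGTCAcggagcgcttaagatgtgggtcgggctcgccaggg
Fos, chr12:85473732-85473851, + strand: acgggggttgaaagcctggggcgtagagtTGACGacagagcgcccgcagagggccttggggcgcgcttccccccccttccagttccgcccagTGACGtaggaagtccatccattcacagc
Ppargc1a, chr5:51567726-51567845, - strand: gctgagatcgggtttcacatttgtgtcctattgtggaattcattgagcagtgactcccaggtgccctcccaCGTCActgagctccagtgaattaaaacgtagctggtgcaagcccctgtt
Nfil3, chr13:52981040-52981159, - strand: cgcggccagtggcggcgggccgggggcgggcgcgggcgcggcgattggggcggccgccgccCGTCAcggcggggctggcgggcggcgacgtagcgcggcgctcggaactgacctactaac
Coq10b, chr1:55052649-55052768, + strand: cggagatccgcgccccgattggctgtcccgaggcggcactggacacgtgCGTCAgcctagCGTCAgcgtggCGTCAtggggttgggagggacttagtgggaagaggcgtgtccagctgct
Each window holds 1 to 3 half-sites, but these 6 genes are examples that hold the site and do not stand for all smaller rises. Coq10b, a coenzyme Q binding protein of mitochondria, had 4 in its 250 bases and rose by 1.34 with TBLR1 shRNA and 2.19 with control shRNA (difference -0.85 ± 0.07, adjusted p = 1.54e-05). The promoter windows of Irs2, Prom1 and Ddit3 held none of these letters. Over the 250-base windows, a half-site was present in 42.5% of 106 promoters of smaller-rise genes and in 28.4% of 109 promoters of lost-rise genes. Smaller or lost falls had one in 19.7% of 147 promoters, against 22.9% of the promoters of all genes tested and 17.8% of all 32851 promoters in the table. Among genes that rose at least 1.5-fold with control shRNA, the share was 42.1% of 95 promoters where the difference was called below 0 and 33.8% of 68 promoters where it was not called. The full palindromic element had the opposite order, at 4.21% of the 95 and 11.8% of the 68. These shares describe letters in a window, some genes have several promoters, and no test was made.

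Lost rises included genes with almost no response to isoproterenol under TBLR1 shRNA. Prom1, a membrane glycoprotein used as a stem cell marker, read 6.36, 6.28 and 6.34 with TBLR1 shRNA and isoproterenol and 6.28, 6.21 and 6.34 with TBLR1 shRNA untreated, against 7.67, 7.65 and 7.57 with control shRNA and isoproterenol and 6.51, 6.54 and 6.61 with control shRNA untreated. The control arrays with isoproterenol lay above all others, the untreated control arrays lay slightly above the TBLR1 shRNA arrays, and the TBLR1 shRNA arrays of both treatments overlapped. The rise was 1.03-fold with TBLR1 shRNA and 2.11-fold with control shRNA, a difference of -1.03 ± 0.07 (adjusted p = 9.67e-07, the lowest of all genes). The Prom1 levels with TBLR1 shRNA lay near the low end of the scale, where a fold can be understated, and its part in the difference was not tested.

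Cenpu, a centromere protein, read 7.37, 7.35 and 7.44 with TBLR1 shRNA and isoproterenol and 7.29, 7.33 and 7.36 with TBLR1 shRNA untreated, against 8.51, 8.94 and 8.62 with control shRNA and isoproterenol and 7.54, 7.48 and 7.58 with control shRNA untreated. Its difference was -1.10 ± 0.11 (adjusted p = 4.15e-05). Here too the high group was the stimulated control alone. Dlc1 read 8.97, 8.99 and 9.00 with TBLR1 shRNA and isoproterenol and 8.98, 8.84 and 8.88 with TBLR1 shRNA untreated, against 9.56, 9.66 and 9.58 with control shRNA and isoproterenol and 8.68, 8.71 and 8.63 with control shRNA untreated. It started higher with TBLR1 shRNA, ended lower, and differed by -0.83 ± 0.06 (adjusted p = 3.59e-06).

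Genes also known to respond to low oxygen had a median difference of -0.14. Of 16 measured, 3 were called below 0 and 0 above (18.8%, against 2.4% of all genes). Vegfa, the angiogenic growth factor, read 9.16, 9.24 and 9.09 with TBLR1 shRNA and isoproterenol and 9.04, 8.94 and 9.11 with TBLR1 shRNA untreated, against 9.94, 10.06 and 9.95 with control shRNA and isoproterenol and 9.34, 9.30 and 9.36 with control shRNA untreated. It was lower with TBLR1 shRNA at both ends, the gap widened, and the difference was -0.52 ± 0.07 (adjusted p = 0.00124). The glycolytic regulator Pfkfb3 (-0.54 ± 0.10, adjusted p = 0.00888) and Ankrd37 (-0.69 ± 0.14, adjusted p = 0.0132) diverged.

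Of 18 measured genes of lipolysis, whose median difference was -0.10, 1 was called (5.56%, against 2.4% of all genes). It was Hcar2, the niacin receptor that restrains lipolysis (-0.45 ± 0.11, adjusted p = 0.0385). Its call was lost in 8 of 12 analyses with 1 array left out, all but those without control shRNA isoproterenol replicate 2, control shRNA untreated replicate 1, TBLR1 shRNA isoproterenol replicate 1 or TBLR1 shRNA untreated replicate 1 (adjusted p up to 0.107). Lipe, the hormone-sensitive lipase gene, had an interaction of 0.07 with a 95% interval of -0.10 to 0.24, and Pnpla2, the adipose triglyceride lipase gene, had -0.10 with an interval of -0.22 to 0.01. Both read lower with TBLR1 shRNA, Lipe by 0.49 with isoproterenol and 0.56 untreated and Pnpla2 by 0.44 and 0.34. Of 19 triglyceride synthesis genes 1 was called, Lpin1 (5.26%, against 2.4% of all genes). No gene was called by limma among 22 of fatty acid uptake and oxidation (2 at an unadjusted p under 0.05), 14 of cholesterol synthesis (2 unadjusted) or 25 of the respiratory chain (1 unadjusted). Lipe and Pnpla2 were chosen for mention after their values were seen.

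Lpin1, the phosphatidate phosphatase of triglyceride synthesis, responded in opposite directions. It read 9.76, 9.76 and 9.76 with TBLR1 shRNA and isoproterenol and 9.90, 9.95 and 9.97 with TBLR1 shRNA untreated, against 10.45, 10.67 and 10.50 with control shRNA and isoproterenol and 10.25, 10.31 and 10.34 with control shRNA untreated. Lpin1 fell by 0.18 with TBLR1 shRNA, rose by 0.24 with control shRNA, and differed by -0.43 ± 0.07 (adjusted p = 0.0038).

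Among the 134 smaller and lost falls, Cxcl10, Cd274 and Ddit3 had the highest differences. Ddit3, the stress-induced factor CHOP, read 12.11, 12.30 and 12.25 with TBLR1 shRNA and isoproterenol and 12.29, 12.30 and 12.31 with TBLR1 shRNA untreated, against 11.00, 11.00 and 10.98 with control shRNA and isoproterenol and 11.76, 11.84 and 11.79 with control shRNA untreated. Control arrays fell by 0.81 and TBLR1 shRNA arrays by 0.08, which did not pass, and every TBLR1 shRNA array lay above every control array. The difference was 0.73 ± 0.07 (adjusted p = 1.86e-05). Herpud1, which helps degrade misfolded proteins, fell less with TBLR1 shRNA (0.51 ± 0.07, adjusted p = 0.00137), and the glutathione-degrading enzyme gene Chac1 fell only with control shRNA (0.28 ± 0.06, adjusted p = 0.0235). The Chac1 call was kept in 5 of 12 analyses with 1 array left out, those without a replicate 1 array or without TBLR1 shRNA isoproterenol replicate 3 (adjusted p up to 0.0673 otherwise). The 22 genes of the integrated stress response had a median of -0.03. Their list held 3 genes called above 0 and 5 called below 0 (36.4% together, against 2.4% of all genes). Below 0 were Atf3, Cebpb, Dnajb9, Ddit4 and Ppp1r15a, the phosphatase subunit that ends the response (-0.55 ± 0.08, adjusted p = 0.00105), so this list held calls in both directions. The Ddit4 call was lost without control shRNA isoproterenol replicate 3 (adjusted p = 0.0507).

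Snai2, a repressor of the epithelial state that precursor cells express, read 8.31, 8.17 and 8.20 with TBLR1 shRNA and isoproterenol and 8.61, 8.85 and 8.91 with TBLR1 shRNA untreated, against 9.30, 9.24 and 9.27 with control shRNA and isoproterenol and 10.36, 10.44 and 10.52 with control shRNA untreated. It was lower with TBLR1 shRNA throughout, fell with both shRNAs, and fell less with TBLR1 shRNA (0.61 ± 0.09, adjusted p = 0.00245). Pdgfra, a growth factor receptor of fat cell precursors, read 8.42, 8.53 and 8.46 with TBLR1 shRNA and isoproterenol and 8.46, 8.44 and 8.42 with TBLR1 shRNA untreated, against 8.47, 8.34 and 8.43 with control shRNA and isoproterenol and 8.83, 8.89 and 8.83 with control shRNA untreated. Only the untreated controls stood apart. Pdgfra (0.46 ± 0.06, adjusted p = 7.51e-04) and Zeb1, a transcription factor of mesenchymal cells (0.46 ± 0.07, adjusted p = 0.00134), thus converged from a lower start. Of 14 preadipocyte and fibroblast markers, with a median of 0.05, 2 were called above 0 and 0 below (14.3%, against 2.4% of all genes). They were Pdgfra and Gas1 (0.33, adjusted p = 0.0329, limma). The Gas1 call held in 4 of 12 analyses with 1 array left out (adjusted p up to 0.0875 otherwise). Without TBLR1 shRNA untreated replicate 1, untreated Gas1 was 0.49 higher with TBLR1 shRNA, unlike the lower start of Pdgfra. The mean level of the 14 markers per array was 9.04 to 9.07 with TBLR1 shRNA and isoproterenol, 9.00 to 9.04 with TBLR1 shRNA untreated, 8.90 to 8.94 with control shRNA and isoproterenol and 8.93 to 8.98 with control shRNA untreated, and its part in these results was not tested.

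Cxcl10, a chemokine induced by interferon, read 12.87, 12.76 and 12.82 with TBLR1 shRNA and isoproterenol and 12.82, 12.66 and 12.44 with TBLR1 shRNA untreated, against 8.97, 8.43 and 8.46 with control shRNA and isoproterenol and 10.08, 9.42 and 9.23 with control shRNA untreated. TBLR1 shRNA arrays lay far above control arrays in both treatments, and the 2 control groups did not overlap each other. The difference of 1.13 ± 0.24 (adjusted p = 0.0223) was the 1 gene above 0 of 2-fold or more. It was lost without control shRNA isoproterenol replicate 2 or 3, TBLR1 shRNA isoproterenol replicate 3 or TBLR1 shRNA untreated replicate 2 or 3 (0.88 to 1.30 over the 12 analyses, adjusted p up to 0.0649), and with trend and robust eBayes settings (adjusted p = 0.139). Cd274, which encodes the immune checkpoint ligand PD-L1, diverged (0.74 ± 0.14, adjusted p = 0.00912), and Trim21, an antibody receptor of the cytosol, fell only with control shRNA (0.55 ± 0.10, adjusted p = 0.00514). Of 29 chemokines and cytokines, with a median of 0.09, 3 were called above 0 and 0 below (10.3%, against 2.4% of all genes). The other two were Ccl5 (0.55 ± 0.14, adjusted p = 0.0479) and Cxcl9 (0.32 ± 0.07, adjusted p = 0.0349), whose calls held in 2 and 3 of the 12 analyses with 1 array left out, for Ccl5 those without control shRNA isoproterenol replicate 1 or untreated replicate 3 and for Cxcl9 those without control shRNA untreated replicate 2 or 3 or TBLR1 shRNA isoproterenol replicate 1 (adjusted p up to 0.134 and 0.102 otherwise).

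The list of 23 interferon-induced antiviral genes had the highest median difference of the 33 lists, 0.25. Yet 1 gene was called (4.35%, against 2.4% of all genes). It was Stat2, a subunit of the factor that reads the interferon signal (0.35 ± 0.08, adjusted p = 0.0403), and its call was lost in 9 of 12 analyses with 1 array left out, all but those without control shRNA isoproterenol replicate 1, control shRNA untreated replicate 3 or TBLR1 shRNA isoproterenol replicate 2 (adjusted p up to 0.111). Ifit1, an interferon-induced RNA-binding protein, read 12.81, 12.59 and 12.74 with TBLR1 shRNA and isoproterenol and 12.68, 12.64 and 12.41 with TBLR1 shRNA untreated, against 10.21, 9.33 and 9.20 with control shRNA and isoproterenol and 11.13, 10.27 and 10.27 with control shRNA untreated. The replicate 1 array was the highest in every group. The Ifit1 difference was 1.12 ± 0.32 (adjusted p = 0.0932) and did not pass. Leaving out control shRNA untreated replicate 1 or 3 moved the median of the list to 0.10 or 0.38. Macrophage markers averaged 6.43 to 6.47 with TBLR1 shRNA and isoproterenol, 6.37 to 6.39 with TBLR1 shRNA untreated, 6.35 to 6.42 with control shRNA and isoproterenol and 6.32 to 6.37 with control shRNA untreated over 15 genes, and their part in these values was not tested. By limma 0 of these 15 were called (1 at an unadjusted p under 0.05), and 0 of 10 endothelial markers (0 unadjusted). Trim21, Chac1, Zeb1, Dnajb9, Ddit4 and Ifit1 were chosen for mention after their values were seen.

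Hbegf, Errfi1 and Serpinb2 were among the 18 gained rises. The 18 measured ERK phosphatase, Sprouty and other feedback genes had a median difference of 0.01. Of these, 1 was called above 0 (Errfi1) and 2 below 0 (16.7% together, against 2.4% of all genes). Hbegf, a ligand of the EGF receptor, read 8.01, 8.40 and 8.01 with TBLR1 shRNA and isoproterenol and 7.69, 7.22 and 7.16 with TBLR1 shRNA untreated, against 6.63, 6.62 and 6.78 with control shRNA and isoproterenol and 6.62, 6.59 and 6.65 with control shRNA untreated. The 2 control groups overlapped at levels below the array median of 7.14, and the TBLR1 shRNA groups lay above them and apart. The response was 0.79 with TBLR1 shRNA and 0.06 with control shRNA (difference 0.73 ± 0.17, adjusted p = 0.0304). Without untreated TBLR1 shRNA replicate 1, its highest untreated array, the difference was 0.89 (adjusted p = 0.00116), and the call was lost in 8 of the 12 analyses with 1 array left out, all but those without control shRNA isoproterenol replicate 3, TBLR1 shRNA isoproterenol replicate 1 or 3, or TBLR1 shRNA untreated replicate 1. Errfi1, a feedback inhibitor of the EGF receptor, behaved likewise (0.81 ± 0.19, adjusted p = 0.0313, and 1.01 with adjusted p = 4.86e-04 without that array), and kept its call in 2 of the 12, those without TBLR1 shRNA isoproterenol replicate 1 or untreated replicate 1. Dusp6, the ERK phosphatase, was higher with TBLR1 shRNA by 1.46 with isoproterenol and 2.23 untreated and differed by -0.77 ± 0.19 (adjusted p = 0.0423), a call kept only without control shRNA untreated replicate 2 or TBLR1 shRNA untreated replicate 1 or 3.

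Calls that held without any single array were also found among gained and larger rises. Serpinb2, an inhibitor of plasminogen activators, read 8.30, 8.04 and 8.18 with TBLR1 shRNA and isoproterenol and 7.54, 7.23 and 7.08 with TBLR1 shRNA untreated, against 6.12, 6.14 and 6.22 with control shRNA and isoproterenol and 5.89, 6.08 and 6.00 with control shRNA untreated. Its response of 0.89 with TBLR1 shRNA, against 0.17 with control shRNA, differed by 0.73 ± 0.13 (adjusted p = 0.00654). Control values lay at the low end of the array's range. Metrnl, a secreted factor of fat and muscle, read 10.57, 10.54 and 10.50 with TBLR1 shRNA and isoproterenol and 9.76, 9.56 and 9.48 with TBLR1 shRNA untreated, against 9.32, 9.45 and 9.47 with control shRNA and isoproterenol and 9.07, 9.15 and 9.18 with control shRNA untreated. It rose with both shRNAs and by more with TBLR1 shRNA (0.65 ± 0.09, adjusted p = 7.65e-04), as did Thbd, the thrombin receptor thrombomodulin (0.63 ± 0.09, adjusted p = 0.00153).

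**Figure D4:**
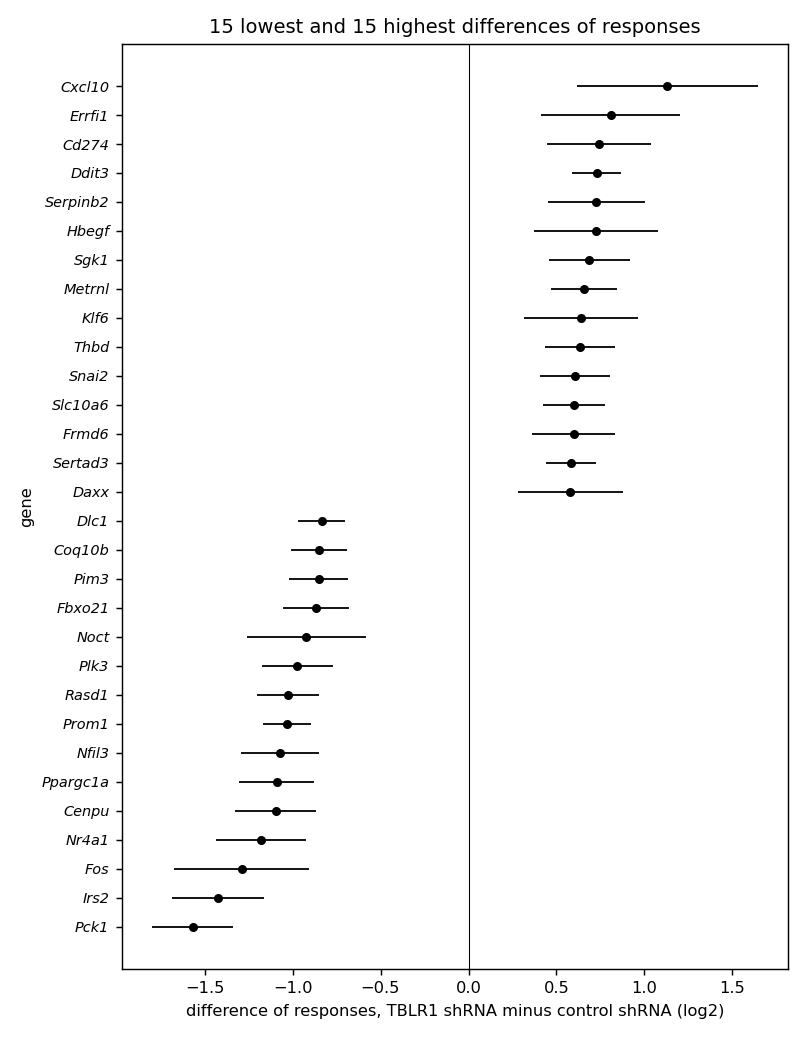
Difference of responses (TBLR1 shRNA minus control shRNA, log2, horizontal axis) with its 95% interval for the 15 highest and 15 lowest called genes. Pck1 at -1.57 is the lowest and Cxcl10 at 1.13 the highest, and intervals are widest for genes such as Cxcl10, Errfi1 and Fos.

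Most smaller and lost rises ended below control, while their starting levels were mixed. Against shRNA differences called for 41.7% of all genes with isoproterenol and 37.7% untreated, the 198 genes with a smaller or lost rise were called higher with TBLR1 shRNA for 17 and lower for 141 with isoproterenol, and higher for 100 and lower for 38 untreated. By pattern, 40 of the 198 converged, 60 diverged, 43 crossed and 55 kept the same order. The median gap, TBLR1 shRNA minus control shRNA, was -0.28 with isoproterenol and 0.13 untreated. Among the 134 genes with a smaller or lost fall, TBLR1 shRNA was called higher for 97 and lower for 11 with isoproterenol, and higher for 44 and lower for 49 untreated. Of these, 26 converged, 41 diverged, 12 crossed and 55 kept the same order. These gaps come from the arrays that make up the difference and were not tested again.

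On the unlogged signal 380 genes were called (2.49%), and 272 genes were called on both scales, 74.3% of the log2 calls and 71.6% of the unlogged calls, all with the same sign. Nr4a1 gained 1948 signal units with TBLR1 shRNA and 2317 with control shRNA, a difference of -369 ± 131 that was not called (adjusted p = 0.201), and Fos (adjusted p = 0.496) and Fosl1 (adjusted p = 0.965), which were higher with TBLR1 shRNA at both ends, were not called either. Pck1 gained 293.9 units with TBLR1 shRNA and 1074 with control shRNA, and its difference of -780 ± 91.3 was called (adjusted p = 4.72e-04). Converging genes went both ways on this scale, since Nr4a1 was not called while Pdk4 (adjusted p = 0.0231), Ppargc1b (adjusted p = 0.0288) and Bhlhe40 (adjusted p = 0.0356) were. Unlogged calls held for 155 of the 198 smaller or lost rises and 91 of the 134 smaller or lost falls. The sign turned for 2 genes. Dusp6 gained more units with TBLR1 shRNA (463 ± 156, adjusted p = 0.17), and Tnfaip6, a hyaluronan-binding protein with a log2 difference of 0.54 ± 0.11, gained fewer (-154 ± 66.9, adjusted p = 0.32).

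**Figure D5:**
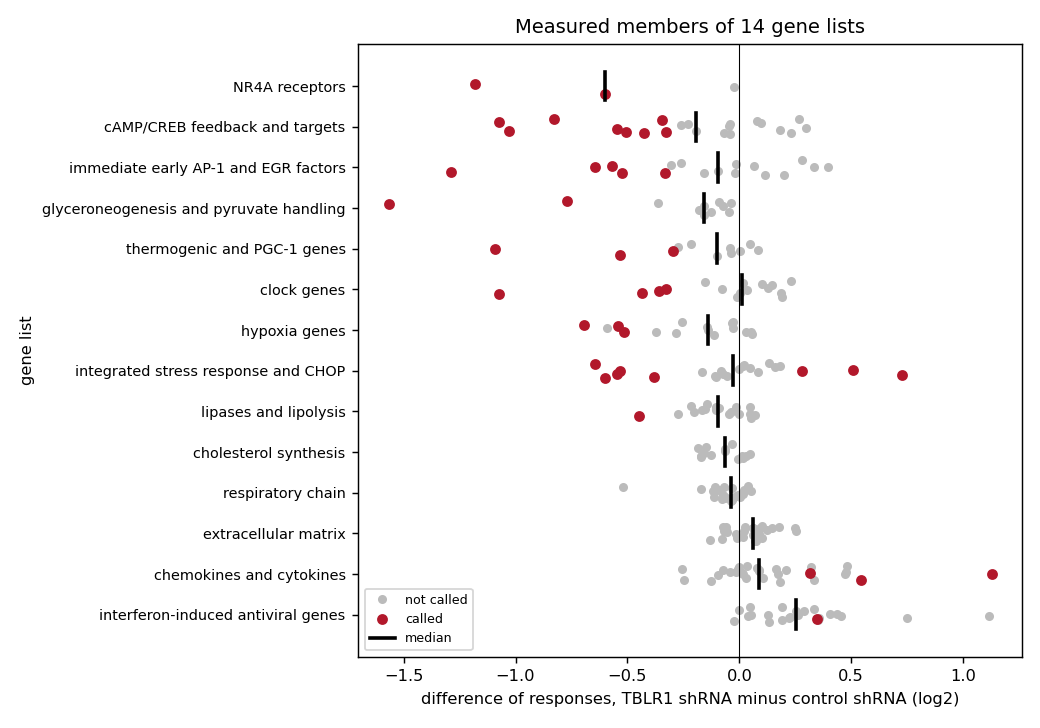
Difference of responses (log2, horizontal axis) for the measured members of 14 gene lists, each point a gene, red points the called genes and black bars the medians. Of the 3 NR4A receptors, Nr4a1 and Nr4a2 lie to the left and Nr4a3 near 0, so their median of -0.60 is the Nr4a2 value. The median is -0.19 for the cAMP and CREB targets, 0.25 for interferon-induced genes and -0.10 for lipolysis genes.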

How the data were processed

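RNA from 12 samples was hybridised to 12 Affymetrix arrays, 3 in each of 4 groups. The deposited values are log2 levels per probe set. Their sorted values differed between arrays by at most 0.00781, so they had been quantile normalised before deposit, which gives all arrays 1 distribution and makes a change relative to most other genes. How background was corrected and probes were summarised is not given in the sources used. Of 16553 probe sets, 61 controls were left out and 1222 had no symbol in the platform annotation, which can be old. Where a gene had 2 probe sets (3 genes) the brighter was kept, leaving 15267 genes. Arrays give no counts, and precision rests on their number and spread (median SD within a group 0.0486 to 0.0531).

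The 4 group means were estimated from all arrays at once in limma 3.58.1 (R 4.3.3), with 8 residual and 7.38 prior degrees of freedom. Two-sided p-values received Benjamini-Hochberg adjustment over all genes, with calls under 0.05, and all adjusted p-values of genes are limma's. The same contrast was fitted to unlogged signal, 2 raised to the log2 value. Genes were named as the 15 highest and 15 lowest called differences, the 4 largest of each response class and of each of 33 lists, 4 marker genes and Tbl1xr1; genes named outside this rule were chosen after their values were seen. The members and lists were chosen with earlier results of these data known. Lists share members, such as Atf3, Cebpb and Nfil3, so their called shares are not separate results. The model was also run on simulated data with known differences, built on the group means and spread of these arrays. On the log2 scale it called 61.2% of 1.25-fold and 94.0% of 1.5-fold differences. Promoters were matched by symbol to a RefSeq table (GRCm38.p6), which held 12273 of the 15267 genes. Alternatives covered centring, loess, the eBayes settings, array weights, low genes, a replicate block, the threshold and each array left out. Figures used matplotlib 3.10.9 in Python 3.11.15.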

Additional observations from a re-analysis of the deposited data

Results flagged for a closer look

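The difference between the responses with TBLR1 shRNA and with control shRNA was itself tested and was called for 366 genes. In 4 of them both responses were called in opposite directions. Lpin1 fell with TBLR1 shRNA and rose with control shRNA, a difference of -0.43. Tns3, which encodes a tensin of cell adhesions, rose by 0.17 with TBLR1 shRNA and fell by 0.14 with control shRNA, a difference of 0.32. Phldb2, which encodes a protein of the cell cortex, rose by 0.20 and fell by 0.24 in the same order, a difference of 0.44. Trex1, which encodes an exonuclease that degrades cytosolic DNA, rose by 0.22 and fell by 0.25, a difference of 0.47. The calls of the difference held for all 4 in the 12 analyses with 1 array left out. The calls of the single responses were not followed there. Some lay near the threshold by limma, at an adjusted p of 0.0238 and 0.0366 for Tns3 with TBLR1 and control shRNA. For Lpin1 with TBLR1 shRNA it was 0.0305. Outside the named genes, the difference was called for 18 of 1222 probe sets with no gene symbol, 7 above 0 and 11 below 0. The gap test for a single outlying sample was not applied to groups of 3 arrays.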

How the results depend on the processing

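The count of 366 calls was 369 with median centring, 350 with cyclic loess, 387 with the trend and robust settings, 426 without the lowest 33% of genes and 503 with array weights. Centring on the hybridisation controls, which moved the median of all genes to 0.04, gave 252 calls, 59.9% above 0 against 44.5% in the deposited scaling, with 101 below 0 and 100 smaller or lost rises; it kept 206 of the 366. At an adjusted p under 0.01 there were 132 calls, 40 above 0 and 92 below 0, with 92 smaller or lost rises and 32 smaller or lost falls. Leaving out each array in turn gave 198 to 385 calls, 71 to 178 above 0 and 127 to 207 below 0, with 125 to 188 smaller or lost rises and 58 to 124 smaller or lost falls. The count was 198 without TBLR1 shRNA isoproterenol replicate 3 and 228 without replicate 2, 221 and 237 without TBLR1 shRNA untreated replicates 2 and 3, 232 and 218 without control shRNA isoproterenol replicates 2 and 3, and 235 without control shRNA untreated replicate 2. Part of such losses follows from fewer arrays. On the unlogged scale these analyses gave 200 to 487 calls. Calls in all 19 of these fits at the 0.05 threshold covered 140 genes. Among 84 called genes chosen by the rule for naming, 55 kept their call without any single array, and 0 values of named genes changed sign past the threshold. Deviations from group means correlated at -0.209 to 0.183 over 18 same-numbered pairs of arrays, and 2 exceeded 0.1. Over 36 pairs with other numbers they correlated at -0.187 to 0.259, and 7 exceeded 0.1. Correlations over all genes cannot show whether smaller sets of genes share a replicate batch, and the labels do not name one. With the replicate block 320 genes were called, 298 of them among the 366. Among genes named in the text, those not called with the block were Fosl1, Hcar2, Errfi1, Cxcl9, Ccl5, Adcy3, Mrpl34, 1810010H24Rik and Kank3. The trend and robust settings ended the calls of Nr4a2, Fosl1, Dusp6, Hbegf, Errfi1, Cxcl10, Ccl5, Daxx, Klf6, Adcy3 and Kank3. Cyclic loess ended those of Ccl5, Stat2, Daxx, Kank3 and 1810010H24Rik, and array weights those of Adcy3 and Kank3. Hybridisation control centring ended those of Arntl, Bhlhe40, Akap1, Adcy3, Pde4b, Fosl2, Fgf21, Kank3 and the 4 gained falls. Arrays give no counts, and what signal over background limits could not be measured, since no background values were used.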
